A study of Mus musculus with 9 samples.

Results

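The genes described here are 7 genes that define or mark regulatory T cells (Tregs): Foxp3, Ikzf2, Ikzf4, Lrrc32, Gpr83, Capg and Nrp1. They were taken by symbol from a deposited table of 23420 genes, and all 7 were found and passed the filter on low values used for testing. The 9 RNA-seq libraries came from Tregs sorted in 3 groups of 3. These were Tregs of the synovium of mice with collagen-induced arthritis, Tregs of the lymph nodes draining the joints of arthritic mice, and Tregs of the draining nodes of untreated control mice. Genotype is labelled WT in every group, although all cells were sorted on a YFP reporter of Foxp3. The construct of that reporter, the strain and the age of the mice are not given in the sources used here. Titles number separate mice, and a synovial and a node library share each number within the arthritic group. Paws and nodes were digested before the sort.

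Foxp3 is the transcription factor that specifies the Treg lineage, and it works with partner factors, among them Eos (Ikzf4). Helios (Ikzf2), like Eos a zinc finger protein of the Ikaros family, helps keep the Treg state stable. GARP (Lrrc32) holds latent TGF-beta at the Treg surface. Gpr83 is a G protein-coupled receptor long used as a Treg signature transcript, CapG (Capg) caps actin filaments, and neuropilin-1 (Nrp1) is a semaphorin and VEGF co-receptor that, with Helios, has served to mark thymus-derived Tregs in mice.

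Synovial Tregs differed from node Tregs in both directions in these genes, while no change was detected between arthritic and control nodes. Ikzf2, Ikzf4, Lrrc32 and Capg rose in synovial Tregs over node Tregs of the same arthritic mice, Gpr83 fell, by a larger fold than any of these rises, and the differences of Foxp3 and Nrp1 did not pass the test. The sequences upstream of Foxp3 and Gpr83 are shown because these are the lineage factor and the 1 gene that fell. RefSeq gives Foxp3 a pair of transcript starts, at 7579676 and 7580483, and the window of the first is printed. Each run holds 250 bases before the start (GRCm38.p6, plus strand), chrX:7579426-7579675 for Foxp3 and chr9:14859960-14860209 for Gpr83, with capitals marking motif matches.
Foxp3: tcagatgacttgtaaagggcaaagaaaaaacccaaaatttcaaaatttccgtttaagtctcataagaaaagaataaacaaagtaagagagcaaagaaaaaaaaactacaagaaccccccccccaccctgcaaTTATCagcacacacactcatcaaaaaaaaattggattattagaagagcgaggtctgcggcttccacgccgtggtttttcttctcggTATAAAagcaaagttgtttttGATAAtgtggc
Gpr83: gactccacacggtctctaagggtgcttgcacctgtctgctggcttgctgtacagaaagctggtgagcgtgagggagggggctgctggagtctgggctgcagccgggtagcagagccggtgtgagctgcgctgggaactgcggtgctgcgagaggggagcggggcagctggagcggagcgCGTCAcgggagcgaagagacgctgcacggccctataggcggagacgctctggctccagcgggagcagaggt
Both strands were searched for 7 motifs. These were the TATA box, spelled TATAAA, and the GATA motif, spelled GATAA. They also included the cyclic AMP half-site, spelled TGACG, and the AP-1 motif, spelled TGANTCA. The forkhead motif was spelled GTAAACA. The NR4A motif was spelled AAAGGTCA, and a kappa B motif was the last. The printed Foxp3 window held TATAAA from 32 to 27 bases before the start, and GATAA 11 to 7 bases before it and, on the other strand, 118 to 114 bases before it. The window of the other Foxp3 start, chrX:7580233-7580482, held GATAA 46 to 42 bases before that start and no TATAAA. The Gpr83 window held TGACG on the minus strand, 71 to 67 bases before the start. No matches overlapped. Among 32851 RefSeq promoters, windows of this length held TATAAA in 12.4%, GATAA in 22.6% and TGACG in 17.8%. Of the 7 genes, 4 had an entry (Foxp3, Gpr83, Capg and Nrp1), and the windows of Capg and Nrp1 held none of the motifs.

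Values below are normalized read counts, the reads of a gene divided by a size factor of its library. A change is the difference between group means on the log2(value + 1) scale, given ± its standard error (SE) from limma. The adjusted p is that of limma with Benjamini-Hochberg adjustment over 11357 tested genes, and genes under 0.05 were called. Libraries held 11300406 to 12855435 reads assigned to genes, and the 7 genes drew between 158 (Gpr83 in synovium) and 23337 (Ikzf2 in synovium) reads per library. The 8 T cell markers fixed as a check were all expressed. Cd3e, of the T cell receptor complex, averaged 11010.1 ± 1399 in the joint, 11035 ± 607 in the arthritic node and 10873 ± 530.2 in the control node. In synovium over arthritic nodes 3 of the 8 rose, 1 fell and 4 did not pass, against 17.9% of all genes higher and 15.9% lower. Cd2 rose by 1.17 ± 0.11, Cd28 by 0.63 ± 0.11 and Cd5 by 0.40 ± 0.10 (adjusted p = 5.57e-06, 0.00106 and 0.00659). Lck fell by 0.38 (SE 0.09, adjusted p = 0.00533). Control node library 1 stood apart on the second principal component, at 83.5 against -41.4 to 18.8 for the others. Synovial library 3 held more fibroblast transcript, with 6 markers summing to 1724 against 70.5 and 34.1 in the other synovial libraries, 0.87 to 156 in arthritic and 7.03 to 35.6 in control nodes.

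**Figure D1:**
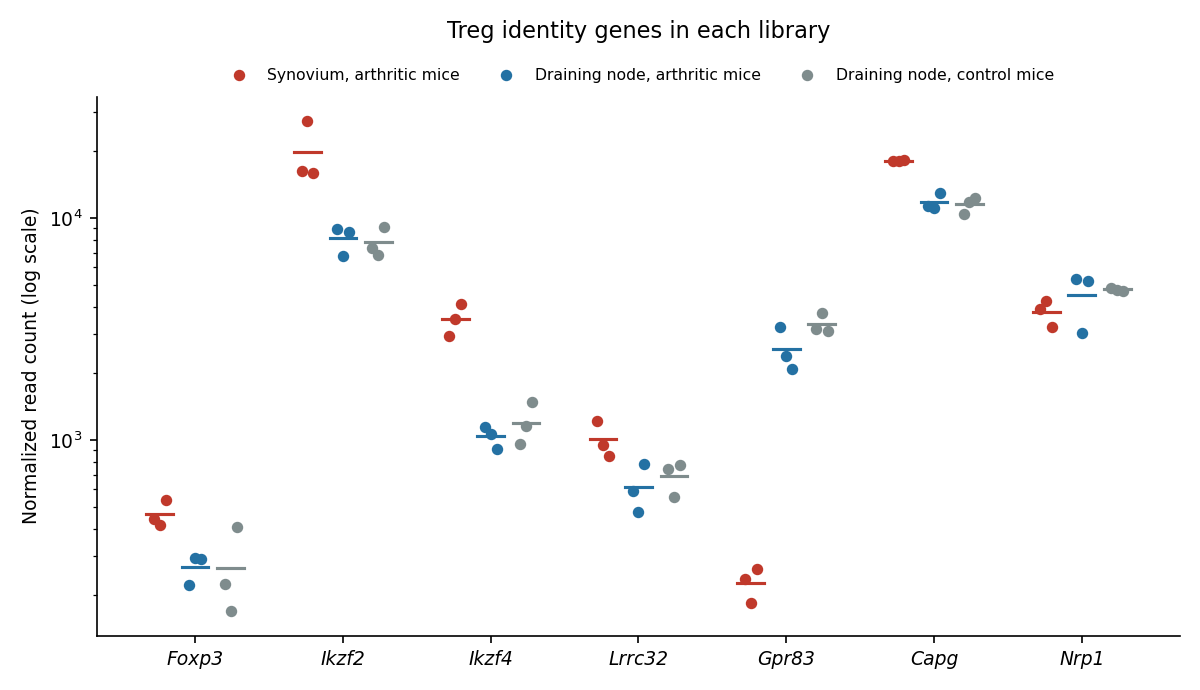
Normalized read counts (log scale) of the 7 Treg identity genes, 1 point per library and a bar at the mean of the 3 libraries of a group. Synovial points lie above both node groups for Foxp3, Ikzf2, Ikzf4, Lrrc32 and Capg, at 186 to 264 against 2093 to 3740.1 for Gpr83, and among or below the node points for Nrp1.

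The comparison of joint and node within arthritic mice asked how Tregs of inflamed synovium differ from those of the node that drains it. Of the 7 genes, 4 rose and 1 fell; of all genes tested, 33.8% were called, 17.9% as higher and 15.9% as lower in synovium. Of all genes, 2034 were thus higher and 1810 lower, against 1711 and 2344 with quantile normalization and 1381 and 3325 with libraries scaled to total reads. An unadjusted p under 0.05 was reached by 6 of the 7 genes and by 43.4% of all genes. The median change was 0.72 over the 7 genes and under 0.01 in size over all genes. Synovial and arthritic node libraries did not overlap for 6 of the 7 genes, 5 of them higher and 1 lower in synovium, and for 48.2% of all genes, 25.2% higher and 23% lower.

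The transcription factors come first. Foxp3 was 443, 413 and 538 in synovial libraries, against 222, 294 and 291 in arthritic node libraries. Every synovial library lay above every arthritic node library. The means of 465 ± 65.3 and 269 ± 41.0 (SD, n = 3 each) differed by 0.79 ± 0.30, with a 95% interval of 1.10 to 2.71-fold, and the difference did not pass (adjusted p = 0.0597). That SE was estimated over all 9 libraries, the control nodes included. In these bulk samples, a change in the share of cells with a transcript and a change in RNA per cell cannot be told apart, for Foxp3 or any gene below. Over 22 alternatives its adjusted p ran from 0.0184 to 0.243. It passed with DESeq2 (adjusted p = 0.0464) and array weights (adjusted p = 0.0310), in a fit of these 6 libraries alone with the mouse as a block (adjusted p = 0.0232) or without one (adjusted p = 0.0184), and without control node library 2 (adjusted p = 0.0379) or 3 (adjusted p = 0.0215). The authors' deposited table lists Foxp3 at 0.77 with an adjusted p = 0.00816. All libraries were sorted on a reporter of this gene.

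Foxp3 drew 188 to 479 reads per library, and part of its sequence is shared. The gene lies on chromosome X, 7573644 to 7595245 on the plus strand (GENCODE vM21, GRCm38). Of its 4577 exonic bases, 31.5% are also exonic in another gene: 853 in Flicr on the same strand, 590 in Ccdc22, 266 in Ppp1r3f and 373 in Gm36995 on the other. Ccdc22 and Ppp1r3f are among the deposited genes, and Flicr and Gm36995 are not. How the counting treated such shared bases is not given in the sources used here, so the Foxp3 counts are uncertain. Ccdc22, a gene of the other strand, was 149, 184 and 194 in synovium against 245, 474 and 350.3 in arthritic nodes and fell, with a change of -0.97 ± 0.27 (adjusted p = 0.0152). Without library 1 of the synovium its adjusted p was 0.0571, and without library 2 of the arthritic node it was 0.0782. Ppp1r3f averaged 154 ± 14.9 in synovium and 153 ± 30.6 in arthritic nodes.

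Ikzf2, encoding Helios, was 16248, 27402 and 16057 in synovium, against 8975, 6735 and 8693 in arthritic nodes. The synovial libraries were all higher, and synovial library 2 was well above the other synovial libraries. Ikzf2 rose by 1.26 ± 0.20, or 2.39-fold with an interval of 1.78 to 3.21 (adjusted p = 0.000371). Ikzf2 lies on chromosome 1, 69531214 to 69687245 on the minus strand.

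Ikzf4, encoding Eos, was 2954, 3524 and 4114 in synovium, against 1144, 1064 and 910.2 in arthritic nodes. No library of one group came near the other. Its rise of 1.76 ± 0.17, or 3.38-fold (interval 2.60 to 4.40, adjusted p = 1.15e-05), was the largest of the 4, and it held in 22 of 22 alternatives. Ikzf4 lies on chromosome 10, 128630843 to 128645991 on the minus strand.

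At the cell surface, Lrrc32, encoding GARP, was 1226, 951 and 845 in synovium, against 589.6, 475 and 784 in arthritic nodes. The groups did not overlap, but the lowest synovial and the highest node library, both of mouse 3, were close. Lrrc32 rose by 0.72 ± 0.22, or 1.65-fold (interval 1.19 to 2.28, adjusted p = 0.0218). It missed the threshold without library 1 of the synovium (adjusted p = 0.0960), without library 1 or 2 of the arthritic node (adjusted p = 0.0629 and 0.0957), with no variance trend (adjusted p = 0.0596) and with libraries scaled to their total reads (0.41, adjusted p = 0.171). Lrrc32 lies on chromosome 7, 98489283 to 98502181 on the plus strand.

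Gpr83 was 236, 186 and 264 in synovium, against 3236, 2407 and 2093 in arthritic nodes. The gap between the highest synovial and the lowest node library was wider than the spread of either group. It fell by 3.48 (SE 0.18, adjusted p = 5.77e-08), which put it 11.2-fold lower in synovium, with an interval of 8.50 to 14.7. Of all genes tested, 0.960% had a lower log2 fold change. Gpr83 lies on chromosome 9, 14860210 to 14870789 on the plus strand.

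Nrp1 was 3897, 4225 and 3244 in synovium, against 5311, 3035 and 5189 in arthritic nodes. Arthritic node library 2 was the lowest of the 6 and the other node libraries the highest, so the groups overlapped. The difference of -0.22 ± 0.19 did not pass (adjusted p = 0.405), and its interval ran from 0.65 to 1.14-fold. Nrp1 did fall without arthritic node library 2 (-0.48, adjusted p = 0.0165), under quantile normalization (-0.55, adjusted p = 0.0480) and with libraries scaled to total reads (-0.53, adjusted p = 0.0401). Nrp1 lies on chromosome 8, 128358604 to 128503363 on the plus strand.

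Capg, the actin-capping gene, was 18137, 18093 and 18376 in synovium, against 11347, 11115 and 12978 in arthritic nodes. The synovial libraries were nearly equal, with a coefficient of variation of 0.837%, against 8.59% in arthritic nodes. Capg rose by 0.63 ± 0.10, or 1.54-fold (interval 1.33 to 1.79, adjusted p = 0.000352), but not under quantile normalization (0.13, adjusted p = 0.373). Capg lies on chromosome 6, 72544391 to 72562983 on the plus strand.

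The authors' deposited table for this comparison lists log2 fold changes of 1.27 for Ikzf2, 1.74 for Ikzf4, 0.69 for Lrrc32, -3.52 for Gpr83 and 0.60 for Capg. Nrp1 stands at -0.27 in the authors' deposited table, with an adjusted p = 0.351.

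**Figure D2:**
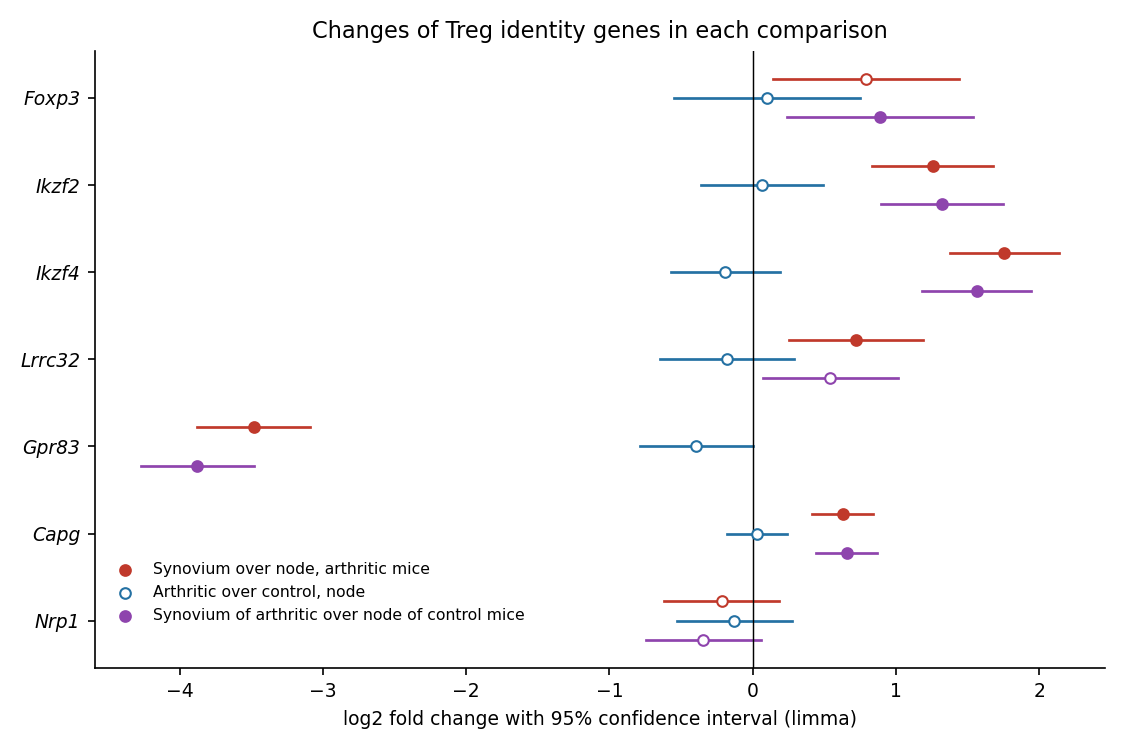
Log2 fold changes of the 7 genes with 95% confidence intervals in the 3 comparisons, filled where the adjusted p was under 0.05 (limma). In the tissue comparison the changes run from -3.48 for Gpr83 to 1.76 for Ikzf4, while all 7 intervals of arthritic over control nodes include 0.

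Within single mice, the synovial over node ratio showed how even these changes were. Ikzf4 was 2.58, 3.31 and 4.52 times as high in synovium as in the node of mouse 1, 2 and 3. Capg was 1.60, 1.63 and 1.42 times as high, the narrowest range of the 7 genes. Ikzf2 was 1.81, 4.07 and 1.85 times as high, with mouse 2 apart. Foxp3 was 2.00, 1.40 and 1.85 times as high, above 1 in all 3 mice. Lrrc32 was 2.08 and 2.00 times as high in mouse 1 and 2 but 1.08 times in mouse 3, where joint and node were nearly level. Gpr83 was lower by 13.7, 13.0 and 7.93-fold. Nrp1 stood at 0.73, 1.39 and 0.63 of the node level, above 1 in mouse 2 and below it in the other mice.

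**Figure D3:**
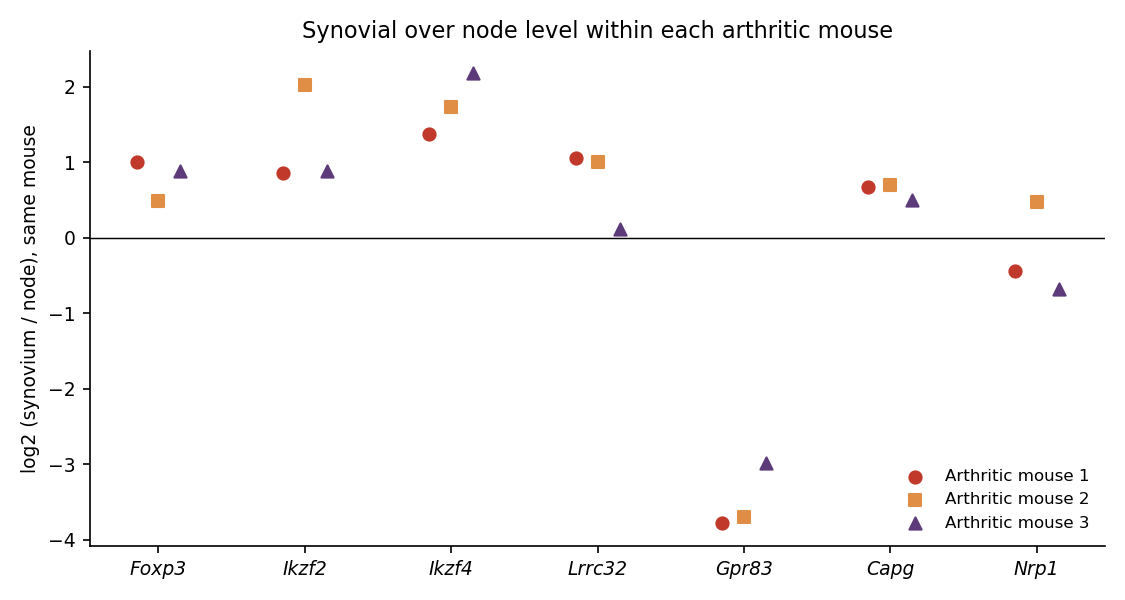
Log2 ratio of the synovial to the node value within each of 3 arthritic mice, for each gene. Points of Ikzf4, Capg and Foxp3 lie above 0 and those of Gpr83 between -3.78 and -2.99, while the points of Nrp1 fall on both sides of 0 and Lrrc32 of mouse 3 lies at 0.11.

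Arthritic against control nodes asked whether disease changed node Tregs. None of the 7 genes passed the test: 0 were called by limma, 0 had an unadjusted p under 0.05, against 9.08% of all genes, and edgeR and DESeq2 called 0. The background was small, with 0.343% of all genes called by limma, 0.335% higher and 0.00881% lower in arthritic nodes. The libraries of the groups overlapped for each of the 7 genes, and did not overlap for 14.9% of all genes, 7.89% higher and 7.03% lower. Gpr83 came nearest, at 3236, 2407 and 2093 in arthritic nodes against 3169.6, 3740.1 and 3119 in control nodes. Its difference was -0.39 ± 0.18 (adjusted p = 0.549), and its interval of 0.58 to 1.00-fold reaches just past 1.

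The others lay close together in arthritic and control nodes. Foxp3 averaged 269 ± 41.0 in arthritic and 266 ± 123 in control nodes, where single libraries held 224, 169.7 and 404. That spread, a coefficient of variation of 46.2%, was the widest among the 7 genes and 3 groups. The interval of the ratio ran from 0.68 to 1.68-fold. Its SE was estimated over all 9 libraries and is the same in each comparison, so this spread also entered the Foxp3 interval of the tissue comparison. Capg had the narrowest interval, 0.88 to 1.18-fold, with 11814 ± 1015 in arthritic and 11582 ± 985 in control nodes. Ikzf2 averaged 8134 ± 1219.9 in arthritic and 7780.0 ± 1216 in control nodes (interval 0.78 to 1.40-fold). Ikzf4 averaged 1039.6 ± 119 against 1201 ± 266 (0.67 to 1.14-fold). Lrrc32 averaged 616 ± 156 in arthritic and 690.3 ± 119 in control nodes (0.64 to 1.22-fold). Nrp1 was 5311, 3035 and 5189 in arthritic nodes, a coefficient of variation of 28.4%, against 4873, 4770.2 and 4698 in control nodes, where it was 1.84% (interval of the ratio 0.69 to 1.21-fold).

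Synovial Tregs set against control node Tregs differ in tissue and in disease, and this comparison shares its synovial libraries with the tissue comparison and its control libraries with the disease comparison. Here too 4 of the 7 genes rose and 1 fell, but with Foxp3 among the risers in place of Lrrc32. All genes gave 40.1% calls, 21.6% higher and 18.5% lower. Libraries did not overlap for 7 of 7 genes, 5 higher and 2 lower, and for 50% of all genes, 26.2% higher and 23.8% lower. An unadjusted p under 0.05 was reached by 6 of the 7 genes and by 48.7% of all genes.

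Ikzf4 rose by 1.57 ± 0.17 (adjusted p = 2.17e-05) and Ikzf2 by 1.32 ± 0.20 (adjusted p = 0.000206). Capg rose by 0.66 ± 0.10 (adjusted p = 0.000203; under quantile normalization 0.18, adjusted p = 0.214). Gpr83 fell by 3.88 (SE 0.18, adjusted p = 1.57e-08) and was 14.7-fold lower. Foxp3 rose by 0.89 ± 0.30 (adjusted p = 0.0318), and missed the threshold without library 1 or 3 of the synovium (adjusted p = 0.0679 and 0.104), without library 1 or 2 of the control node (adjusted p = 0.0853 and 0.126), with edgeR (adjusted p = 0.0664), with no variance trend (adjusted p = 0.0597), in a fit of these 6 libraries alone (adjusted p = 0.0535) and with libraries scaled to total reads (adjusted p = 0.149). Lrrc32 differed by 0.54 ± 0.22 (adjusted p = 0.0632) and passed with array weights (0.76, adjusted p = 0.0121) and without arthritic node library 3 (adjusted p = 0.0492). Nrp1 was lower in every synovial library than in every control node library, but the difference of -0.34 ± 0.19 did not pass (adjusted p = 0.159); it passed without arthritic node library 2 (adjusted p = 0.0335), with quantile normalization (adjusted p = 0.0147) and with total reads (adjusted p = 0.0126).

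By group mean, the order of levels was thus synovium first for Foxp3, Ikzf2, Ikzf4, Lrrc32 and Capg, and last for Gpr83 and Nrp1. Not all of these differences were called: Nrp1 passed over neither node group, Foxp3 not over arthritic nodes and Lrrc32 not over control nodes. The 2 node groups, neighbours in each order, did not differ beyond their spread for any of the 7 genes. Levels can be compared between genes only per length, here as RPKM, reads per kilobase of exon scaled to the assigned reads of a library (exon lengths of GENCODE vM21). On that scale Capg was the highest of the 7 in each group, at 517 ± 14.2 in synovium, 417 ± 41.7 in arthritic and 411 ± 43.3 in control nodes, above at least 99.0% of tested genes in every library. Ikzf2 came next, at 123 ± 36.9, 62.6 ± 10.2 and 60.2 ± 11.0 RPKM in these groups. Ikzf4 took the third place in synovium with 42.3 ± 6.96 RPKM, against the fifth in arthritic nodes with 15.5 ± 1.67 and in control nodes with 18.0 ± 4.45.

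Gpr83 took the last place in synovium, against the third in both node groups. It stood at 3.23 ± 0.618 RPKM in synovium, 45.1 ± 10.3 in arthritic and 58.7 ± 5.35 in control nodes. Foxp3 held 7.30 ± 1.12 RPKM in synovium, against 5.24 ± 0.789 in arthritic and 5.25 ± 2.57 in control nodes, where it was the lowest of the 7. Lrrc32 held 15.5 ± 3.21, 11.8 ± 3.15 and 13.2 ± 2.49 RPKM in the joint, the arthritic node and the control node. Nrp1 held 27.8 ± 3.29 in synovium, against 41.3 ± 12.2 in arthritic and 43.7 ± 0.633 in control nodes. RPKM scales to total reads, which lowers the synovial levels relative to the size factors used in the tests.

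**Figure D4:**
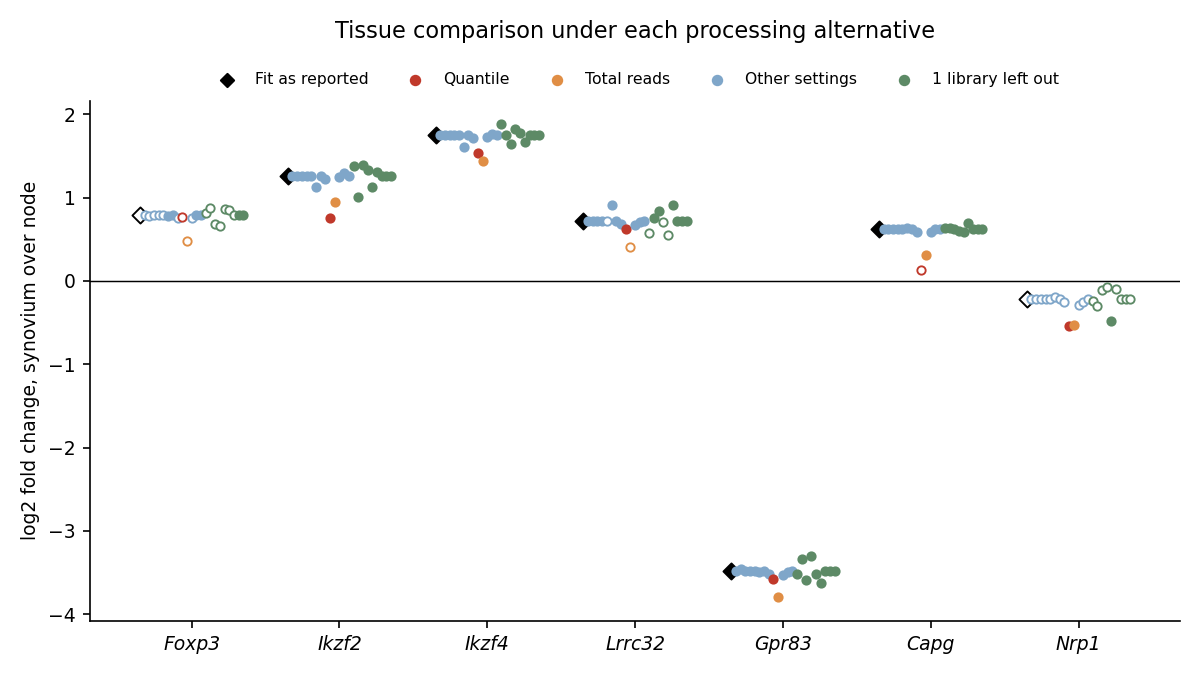
Log2 fold change of synovium over arthritic node for each gene as reported (diamond) and under 22 alternatives (circles), filled where the adjusted p was under 0.05. Ikzf2, Ikzf4 and Gpr83 are filled throughout, Capg is open under quantile normalization alone, and Foxp3, Lrrc32 and Nrp1 hold both filled and open points.

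Scaling matters for the small changes. A read was worth 1.10 to 1.17 normalized counts in synovium and 0.870 to 1.00 in nodes, and with libraries scaled to total reads the median of all genes shifted to -0.31 in the tissue comparison. Foxp3 then differed by 0.48 (adjusted p = 0.243), and Capg by 0.31, which passed (adjusted p = 0.0274). Under quantile normalization the median of all genes lay at -0.12 and Ikzf2 rose by 0.76 (adjusted p = 0.00722).

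The genes that act on Foxp3 or beside these 7 were described from lists that hold none of them, to be read beside the 17.9% of all genes called higher and 15.9% called lower. Of 26 tested regulators of Foxp3 transcription and demethylation, 12 rose, 2 fell and 12 did not pass in the tissue comparison, with a median of 0.63. The nuclear receptor genes Nr4a2 and Nr4a3, which help induce Foxp3 in thymus, rose most. Nr4a2 stood at 2196 ± 482 in the joint against 36.9 ± 14.6 in the arthritic node, and rose by 5.93 ± 0.43 (adjusted p = 8.19e-07). Nr4a3 averaged 122 ± 42.3 against 1.86 ± 1.72 and rose by 5.53 ± 1.03 (adjusted p = 0.00136). The node mean of Nr4a3 lies below 3 reads, or 2.61 to 3.52 normalized counts, so the size of its rise is uncertain. Bach2, a repressor of effector programs in T cells, averaged 105 ± 54.7 against 801 ± 167 and fell by 3.05 (SE 0.36, adjusted p = 4.32e-05). Dnmt1, the maintenance DNA methyltransferase, fell by 0.63 (SE 0.23, adjusted p = 0.0476), a call lost without any of synovial libraries 1 and 2 and the 3 arthritic node libraries (adjusted p = 0.125, 0.148, 0.0759, 0.138 and 0.105), with no filter (0.0635), with no variance trend (0.102) and with edgeR (0.0526).

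Of 16 tested protein partners and modifiers of Foxp3, 3 rose, 3 fell and 10 did not pass, with a median of -0.17, shares near those of all genes; with total-read scaling 2 rose and 7 fell. The kinase gene Pim1 averaged 1931 ± 322 in the joint against 409 ± 39.8 in the arthritic node (2.23 ± 0.19, adjusted p = 2.92e-06). The deacetylase gene Sirt1 rose by 1.07 ± 0.28 (adjusted p = 0.0111; without synovial library 1, adjusted p = 0.0553). Gata1, an erythroid and megakaryocytic factor that can bind Foxp3, held 22.04, 27.01 and 0 in the joint against 783, 546 and 444 in the arthritic node and fell by 6.06 (SE 0.94, adjusted p = 0.000367). Because synovial library 3 was at 0, the size of this fall is uncertain. Lef1, a factor of naive T cells that can work with Foxp3, averaged 1681 ± 339 against 5609 ± 675 and fell by 1.75 (SE 0.15, adjusted p = 2.87e-06).

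Among 18 other Treg signature genes, 15 rose, 2 fell and 1, Itgae, did not pass (median 1.68; 13 rose under quantile normalization and 14 with total reads). Dusp4, a MAP kinase phosphatase, averaged 1926 ± 349 in the joint against 77.3 ± 9.89 in the arthritic node (4.61 ± 0.33, adjusted p = 7.38e-07). Tigit, an inhibitory receptor gene, averaged 17091 ± 4474 against 1934 ± 457 (3.14 ± 0.24, adjusted p = 1.05e-06). As with Gpr83, 2 signature genes were lower in the joint. Folr4, now named Izumo1r and encoding folate receptor 4, averaged 5459 ± 389 against 10728 ± 2712 and fell by 0.94 (SE 0.16, adjusted p = 0.000641). Ecm1 averaged 2955 ± 325 against 3823 ± 623 and fell by 0.36 (SE 0.13, adjusted p = 0.0465). The Ecm1 call was lost with the mouse as a block (adjusted p = 0.0919), with no filter (0.0648), with no variance trend (0.129), in a fit of the 6 libraries compared (0.0766), without library 1 or 2 of the synovium (0.131 and 0.115), without library 1 or 2 of the arthritic node (0.196 and 0.102), and without library 1, 2 or 3 of the control node (0.0594, 0.0625 and 0.0540). Itgae differed by 0.39 ± 0.19 (adjusted p = 0.142) and passed with the block (adjusted p = 0.0383).

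Of 5 tested genes that Foxp3 is known to repress, 2 rose, 0 fell and 3 did not pass. Ptpn22, a phosphatase gene, averaged 11880 ± 883 in the joint against 5755 ± 711 in the arthritic node (1.05 ± 0.12, adjusted p = 4.30e-05), and Ifng averaged 297 ± 72.9 against 89.1 ± 34.8 (1.76 ± 0.39, adjusted p = 0.00393). The cytokine gene Il2, the best-known target of this kind, was near its floor at 10.9 ± 1.39 against 20.4 ± 15.6 and did not pass (adjusted p = 0.669). The median of these 5 genes was 0.24, or -0.0034 under quantile normalization and -0.07 with total reads.

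The other Ikaros family genes split. Ikzf3, encoding Aiolos, stood at 3452 ± 286 in the joint against 1760.1 ± 382 in the arthritic node and rose by 0.99 ± 0.17 (adjusted p = 0.000711), as Ikzf2 and Ikzf4 did. Ikzf1, encoding Ikaros, averaged 1448 ± 94.5 against 3232 ± 522 and fell by 1.15 (SE 0.13, adjusted p = 3.23e-05). Ikzf5 differed by 0.36 ± 0.32 (adjusted p = 0.431). The directions of Ikzf1 and Ikzf3 were the same under TMM, quantile and total-read scaling.

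Around GARP, 3 of 5 tested genes of latent TGF-beta handling rose and 2 did not pass. Itgav, the integrin alpha V gene, averaged 10164 ± 982 in the joint against 501 ± 42.2 in the arthritic node (4.34 ± 0.15, adjusted p = 4.33e-09). Furin, the protease gene of the TGF-beta precursor, averaged 1450.3 ± 724 against 150.5 ± 39.7 (3.18 ± 0.38, adjusted p = 5.03e-05). Itgb8, whose product pairs with integrin alpha V to release TGF-beta from GARP, averaged 1300 ± 216 against 158 ± 44.3 (3.06 ± 0.30, adjusted p = 9.98e-06). The ligand gene Tgfb1 was low, at 55.9 ± 44.0 against 12.7 ± 3.41 (adjusted p = 0.0819); it passed with no variance trend (adjusted p = 0.0480), with DESeq2 (adjusted p = 0.0304) and without synovial library 2 (adjusted p = 0.0485). Lrrc33, now Nrros and a GARP relative, averaged 2323 ± 335 against 2303 ± 150.2 (adjusted p = 0.986).

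Around neuropilin-1, 1 of 8 tested ligand and co-receptor genes rose and 3 fell, against 17.9% and 15.9% of all genes; 1 fell with no variance trend and 2 with the mouse as a block. The plexin gene Plxnd1 averaged 314 ± 143 in the joint against 38.2 ± 4.31 in the arthritic node (2.92 ± 0.41, adjusted p = 0.000169). Sema4a, which encodes a ligand of Nrp1 on Tregs, averaged 194 ± 102 against 502 ± 193 and fell by 1.45 (SE 0.42, adjusted p = 0.0196). It missed the threshold without library 2 of the synovium (adjusted p = 0.0635) and without library 2 or 3 of the arthritic node (0.0813 and 0.0774), and with no variance trend (0.0631). Gipc1, encoding an adaptor that binds the Nrp1 tail, averaged 291 ± 52.4 against 688 ± 56.2 and fell by 1.25 (SE 0.18, adjusted p = 0.000186). Among 5 tested relatives of Capg in the gelsolin superfamily, Vill alone passed, at 587 ± 71.5 against 336 ± 99.3 (0.84 ± 0.28, adjusted p = 0.0342), and it was lost without library 1, 2 or 3 of the synovium (adjusted p = 0.0521, 0.0749 and 0.103), without library 1 or 2 of the arthritic node (0.0809 and 0.136), with edgeR (0.0528), with no variance trend (0.0709) and with total reads (0.161). With the mouse as a block 3 of these 5 relatives rose, and with DESeq2 2 did.

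Between arthritic and control nodes, limma and edgeR called 0 of the 85 genes tested in the 8 lists, and 16 had an unadjusted p under 0.05 in limma. DESeq2 called 6 of the 85: Itgae (adjusted p = 0.00389), Pim2 (0.00408) and Prdm1 (0.00416) as higher in arthritic nodes, and Il2ra (0.0294), Nr4a2 (0.0308) and Socs2 (0.0156) as lower. With limma, Itgae also passed without arthritic node library 1 (adjusted p = 0.0411) or control node library 3 (adjusted p = 0.0235).

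**Figure D5:**
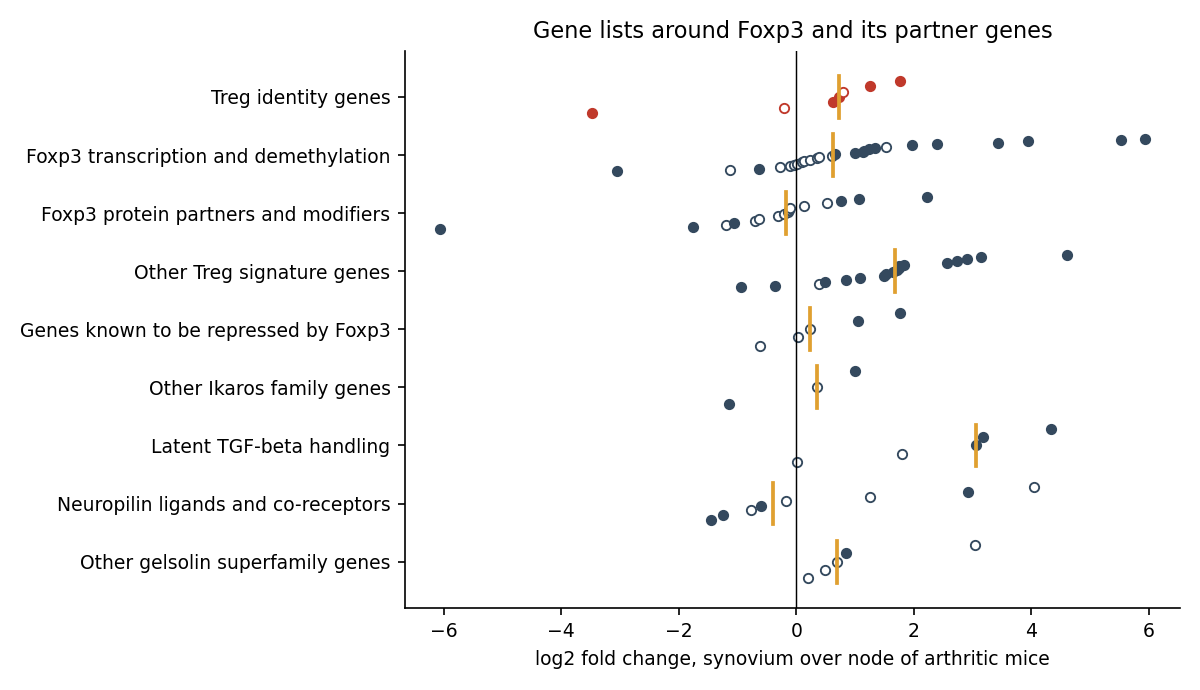
Log2 fold change of synovium over arthritic node for the 7 Treg identity genes (top) and for 8 lists of related genes, 1 point per tested gene, filled where the adjusted p was under 0.05, with the median as a bar. The medians run from -0.40 for neuropilin ligands and co-receptors to 3.06 for latent TGF-beta handling.

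Some of the 7 genes are also expressed by other cells, Nrp1 and Lrrc32 by endothelium and Capg by macrophages. Of 8 endothelial markers Kdr, Emcn and Esam had no read in any library and Cdh5 averaged 0.367 in the joint, 0.962 in the arthritic node and 0 in the control node; the summed level, 1480 to 1741 in synovium, 2311 to 2967 in arthritic and 2806 to 3370.0 in control nodes, was nearly all Pecam1, which T cells express. The 10 macrophage markers summed to 79.8 to 314 in synovium, 62.5 to 559 in arthritic and 74.0 to 372 in control nodes, with Csf1r averaging 0.367 and Emr1, Mrc1, Fcgr1 and C1qc at 0 in synovium. Of the 4 macrophage markers tested, Cd14 passed and was higher in the joint, with 70.5, 196 and 66.3 in synovium against 0, 0 and 14.9 in arthritic nodes and 0 in every control node library (5.29 ± 1.22, adjusted p = 0.00516; with DESeq2, adjusted p = 0.171). The other 3, Lyz2, C1qb and Cd68, were lower in the joint than in the arthritic node and did not pass (adjusted p = 0.110, 0.156 and 0.558). Lyz2 averaged 20.8 ± 24.7 in synovium, 169 ± 150 in arthritic and 200 ± 132 in control nodes. Against control nodes, synovial Lyz2 was called lower (-4.14, adjusted p = 0.0377). With node libraries at 0, the size of the Cd14 rise is uncertain. The part of these markers in the results was not tested. The 8 dendritic cell markers summed to 2002 to 2158 in synovium, 1501 to 1961 in arthritic and 1523 to 1781 in control nodes, with Clec9a at 0 in every library. In nodes the sum was nearly all Bst2, at a mean of 1637 in arthritic and 1620 in control nodes. In synovium Itgax was at 0, and Siglech, Flt3 and Cd209a averaged 15.1, 3.31 and 6.24. Of the 3 tested genes of that list, 2 rose and 1 fell in the tissue comparison. Xcr1 and Zbtb46 averaged 439 and 560.4 in synovium against 21.0 and 22.4 in arthritic nodes. Bst2 averaged 1036 ± 79.7 against 1637 ± 260 and fell by 0.65 (SE 0.14, adjusted p = 0.00364). The part of these 3 genes in the results was not tested. The fibroblast markers of synovial library 3 stand apart. Without that library Ikzf2, Ikzf4, Lrrc32, Capg and Gpr83 kept their calls in the tissue comparison, with Ikzf2 at 1.39 and Gpr83 at -3.59. Foxp3 then differed by 0.68 (adjusted p = 0.167), and its call over control nodes was lost (adjusted p = 0.104). The part of fibroblast transcript in the results was not tested.

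For each of the 7 genes, the tested genes with the most similar pattern were found by Pearson correlation of log2 values over the 9 libraries, among 8929 genes with a mean of 50 or more. These points share 3 groups and the values are a description. Gpr83 was most like Nsg2 (r = 0.997), at 119 ± 25.8 in synovium against 2183 ± 295 in arthritic and 2497 ± 174 in control nodes, followed by Acat1 (0.997) and Itga6 (0.996). Ikzf4 was most like Fam132a (0.989), Gxylt1 (0.986) and Swap70 (0.984), the last of which is itself on the Treg signature list. Ikzf2 was most like B9d2 (0.983), Soat1 (0.980) and Pfkp (0.977), and Capg like Snx9 (0.993), Gas2l3 (0.989) and Mul1 (0.988). Foxp3 was most like Eaf1 (0.980), at 598 ± 24.7 in the joint, 372 ± 32.3 in the arthritic node and 366 ± 147 in the control node, then Nsmf (0.975) and Abhd2 (0.967). Lrrc32 was most like Uvrag (0.975), which lies 382839 bases away on the same chromosome, then Zdhhc5 (0.918) and Ppm1d (0.914). Nrp1 had the weakest matches, Ddc (0.907), Tmem39b (0.906) and Decr1 (0.903).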

How the data were processed

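RNA from Tregs sorted on a Foxp3 reporter was sequenced in 9 libraries, prepared with a directional kit per the labels' protocols. The submitters' processing notes name HISAT2, HTSeq, DESeq2 and mm10; the sources used here give no version, annotation or strand setting. The authors deposited a normalized signal per gene, gene reads divided by a size factor: dividing by the value of 1 read gave whole reads, within 0.01, for 100% of values above 0. They also deposited a comparison table with log2 fold changes, a Wald score and adjusted p-values, per the file headers. Its sign matched synovium over node.

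Genes with a mean of 10 or more (11357) were tested with limma 3.58.1 in R 4.3.3 (eBayes with trend) on log2(value + 1), all 9 libraries in 1 fit, two-sided. Adding 1 to the values shrinks changes of low genes. A library at 0 lowers the mean of log2 values more than the mean of values. It can thus overstate a change, as for Gata1 in synovium. Values of 0 were left at 0 in the tests. The floor is a reference level of 3 reads, or 2.61 to 3.52 normalized counts, and was not applied to the values. Intervals cover the spread between libraries. Named genes were the 7 members and the 3 genes most alike per member. They also included up to 2 per direction and list with the largest called change in the tissue comparison. Itgae, Ikzf5, Itgb8, Cd14, Pim2, Prdm1, Il2ra, Socs2, Tgfb1, Lrrc33, Il2 and Ppp1r3f were added after their values were seen or as genes sharing exons. The markers Bst2, Lyz2, C1qb, Cd68, Cd2, Cd5, Cd28 and Lck were also added after their values were seen. Members and lists were chosen with earlier results of these data known.

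Alternatives changed the pseudocount, filter, variance trend, library weights, libraries in the fit, scaling (TMM, quantile, and total reads, the last chosen after seeing the data), test (edgeR 4.0.16 or DESeq2 1.42.0 on recovered reads), the replicate number as a blocking factor, and the omission of single libraries. Same-numbered synovial and arthritic node libraries come from the same mouse by their titles, and their residuals correlated at 0.02, 0.05 and 0.09. Each synovial library matched the arthritic node library of its own number best. Arthritic and control nodes share no mice, yet libraries 2 and 3 matched their own number best there too, each at 0.07, and library 1 did not. Scripts were tested on simulated counts.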

Additional observations from a re-analysis of the deposited data

How the results depend on the processing

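Over 22 alternatives, all gene counts of the tissue comparison and of synovium over control nodes stayed within 1.5 times of 3844 and 4551, and the number of the 7 genes higher in synovium stayed within 3 to 5 in both. The number lower was 2 instead of 1, with Nrp1 added, under quantile normalization and total-read scaling in both comparisons, and over left-out libraries it ran from 1 to 2 in both. With the number as a block it was 2 for synovium over control nodes, and Lrrc32 passed there (adjusted p = 0.0439), but the number pairs no animals; same-numbered residuals there correlated at -0.02 to 0.05, and only 1 of 3 numbers matched its own library best. Arthritic over control nodes gave 39 genes, against 10 with no trend, 0 in a fit of the 2 groups alone and with the block, 173 with DESeq2, and 0 to 66 with 1 library left out (15 without synovial library 1, 0 and 1 without arthritic node library 2 and 3, 23 and 66 without control node library 2 and 3); 0 of the 7 genes passed in any of these. In that comparison the sign of 4 uncalled differences turned when 1 library was left out, with ranges of -0.17 to 0.45 for Foxp3, -0.023 to 0.19 for Ikzf2, -0.041 to 0.079 for Capg and -0.27 to 0.14 for Nrp1. Of calls in the tissue comparison, 52.9% were higher, against 42.2% with quantile normalization and 29.3% with total reads. The cause was not tested. In all, 425 of the members' values kept direction and side of the threshold, 16 newly passed, 15 no longer passed and 6 changed sign. The effect of depth was not tested; Foxp3 drew 188 to 479 reads per library and Gpr83 158 to 235 in synovium.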
